A study of Mus musculus with 8 samples.

Results

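Binding of the nuclear factor I protein NFIB was set against binding of its relative NFIA by comparing the peak lists of 2 NfiB libraries with those of 2 NfiA libraries. The libraries are chromatin immunoprecipitation sequencing (ChIP-seq) of granule neuron progenitors dissociated from the mouse cerebellum at postnatal day 7, and each factor has a CD1 library and a library of a mixed mouse background, likened to outbred CD1 in the labels (Mixed). The 4 lists were merged wherever their peaks overlapped by at least 1 bp, which gave 44683 regions, of 46070 when the 2 NfiX libraries of the series were merged in as well. A region was called NFIB-only when both NfiB libraries and neither NfiA library held a peak there (5654 regions), NFIA-only in the reverse case (105 regions), and shared when all 4 libraries held one (13136 regions). The other 25788 regions had mixed support. The series has 8 samples, and the 2 input samples were not analysed here. No mutation or treatment is named. The sources give different NfiB antibodies, Novus Biologicals in the sample labels and Sigma in the series design text. The NfiA libraries used an Abcam antibody, so factor and antibody cannot be told apart in any comparison below. The labels do not say that the libraries came from separate animals, so differences between them may be technical.

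Nuclear factor I proteins bind DNA as dimers and recognise a palindrome whose arms, TTGGC and GCCAA, lie 5 bases apart, and they also bind single arms more weakly. The family members NFIA, NFIB, NFIC and NFIX share a closely similar DNA-binding domain and can form mixed dimers. In the postnatal cerebellum NFIA, NFIB and NFIX are known to act in granule neuron axon extension, dendrite formation and migration. E-boxes of the form CAGATG or CAGCTG are the sites of basic helix-loop-helix (bHLH) factors such as ATOH1 and NEUROD1, which set granule neuron fate.

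The sequences below show the letter pattern that most clearly separated the NFIB side from the NFIA side. Each runs 50 bases to either side of a region's highest summit and was read from GENCODE transcripts or RefSeq promoters (GRCm38, the same assembly as mm10, + strand, written 5′ to 3′). Capitals mark the palindrome with short arms (TGGC and GCCA, 5 bases apart), the element TTGGCA and the E-box CAGATG, the last 2 in either orientation. No genome sequence was used, so only windows inside an annotated exon or RefSeq promoter could be read. The first set is shared regions where NfiB ranked higher, taken in order of rank difference among the windows that hold CAGATG, so the presence of that motif in them is not a result. They are named by the nearest protein-coding gene.
Tbc1d22a, chr15:86763789-86763889, noncoding exon: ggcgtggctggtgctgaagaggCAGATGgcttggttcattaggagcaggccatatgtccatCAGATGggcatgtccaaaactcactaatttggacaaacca
Krtap16-1, chr11:99985681-99985781, promoter, coding exon: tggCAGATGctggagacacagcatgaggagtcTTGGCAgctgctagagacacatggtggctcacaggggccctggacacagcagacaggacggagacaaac
2310061N02Rik, chr16:88707649-88707749, promoter, coding exon: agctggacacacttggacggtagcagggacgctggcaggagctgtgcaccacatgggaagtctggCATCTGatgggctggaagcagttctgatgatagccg
Tfdp2, chr9:96219329-96219429, noncoding exon inside Tfdp2: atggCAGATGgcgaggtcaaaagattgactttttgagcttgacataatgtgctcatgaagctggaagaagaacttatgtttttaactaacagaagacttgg
The second set is shared regions where NfiA ranked higher, taken in the same way among the windows that hold the short-armed palindrome.
Themis3, chr17:66745210-66745310, noncoding exon inside Ptprm: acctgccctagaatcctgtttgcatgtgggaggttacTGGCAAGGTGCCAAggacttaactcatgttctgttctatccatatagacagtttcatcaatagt
Slitrk1, chr14:108912385-108912485, coding exon: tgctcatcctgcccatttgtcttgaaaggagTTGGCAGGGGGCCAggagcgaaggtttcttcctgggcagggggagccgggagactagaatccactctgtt
Syne3, chr12:104969248-104969348, coding exon: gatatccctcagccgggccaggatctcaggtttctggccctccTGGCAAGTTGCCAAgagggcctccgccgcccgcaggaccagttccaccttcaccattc
Tspan12, chr6:21684386-21684486, noncoding exon inside Kcnd2: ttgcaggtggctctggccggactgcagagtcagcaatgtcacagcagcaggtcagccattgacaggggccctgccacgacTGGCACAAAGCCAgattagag
The third set comes from the strongest NFIB-only regions with a readable window free of untranslated bases, 2 outside promoters and 2 at promoters, and the fourth is the strongest NFIA-only region with one. They were chosen without regard to motifs, and none of these 5 windows holds the short-armed palindrome.
N6amt1, chr16:86759201-86759301, noncoding exon, NFIB-only: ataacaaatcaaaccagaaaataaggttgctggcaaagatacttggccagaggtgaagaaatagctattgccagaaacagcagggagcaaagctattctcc
Mybpc1, chr10:88603910-88604010, noncoding exon, NFIB-only: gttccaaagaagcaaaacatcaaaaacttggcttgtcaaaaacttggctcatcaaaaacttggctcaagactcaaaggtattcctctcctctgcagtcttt
Enpep, chr3:129332816-129332916, promoter, upstream, NFIB-only: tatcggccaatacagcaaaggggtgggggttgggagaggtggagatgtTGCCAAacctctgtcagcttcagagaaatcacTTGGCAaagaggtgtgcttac
Fam107b, chr2:3570249-3570349, promoter, upstream, NFIB-only: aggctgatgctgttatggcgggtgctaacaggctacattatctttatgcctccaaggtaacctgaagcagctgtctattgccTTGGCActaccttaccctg
Cdc27, chr11:104534757-104534857, coding exon, NFIA-only: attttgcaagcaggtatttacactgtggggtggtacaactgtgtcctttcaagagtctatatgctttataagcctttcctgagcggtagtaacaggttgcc

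The printed windows had these strengths, given as the authors' fold enrichment at the summit and as a rank among shared regions, where 100 is the highest. Tbc1d22a had folds of 11.9 and 11.1 in NfiB CD1 and Mixed (ranks 72.1 and 75.1), against 4.59 and 6.0 in NfiA CD1 and Mixed (ranks 19.1 and 40.8). Krtap16-1 had 9.64 and 8.5 in NfiB (54.6 and 54.8), against 4.07 and 4.95 in NfiA (9.89 and 23.0). In both, each NfiB rank lay above each NfiA rank. Slitrk1, a neuronal adhesion protein, had 6.56 and 5.66 in NfiB (20.9 and 20.1), against 7.96 and 8.79 in NfiA (72.7 and 73.9). Themis3 had 5.43 and 4.89 in NfiB (9.85 and 11.2), against 8.79 and 6.59 in NfiA (79.6 and 50.1). Both windows lay on the other side, and both NfiX libraries held all 4 windows of the second set. Among NFIB-only windows Mybpc1 had 8.95 and 6.26 in NfiB, Enpep 5.24 and 6.53 and Fam107b 6.32 and 5.28. The NFIA-only window in Cdc27, a subunit of the anaphase-promoting complex, had 5.67 and 6.08 in NfiA.

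The peaks were called per library, and the lists differ in length. NfiB had 36431 peaks in CD1 and 33283 in Mixed, and NfiA had 16993 in CD1 and 23541 in Mixed. They covered 13.5 and 12.3 Mb in the NfiB libraries and 5.36 and 7.55 Mb in the NfiA libraries. Both NfiB lists were therefore longer than both NfiA lists, but with 2 libraries per factor the exact two-sided permutation test gave p = 0.333, the smallest it allows. Median fold enrichment over the local background, the authors' own value at each summit, was 5.76 and 5.52 in NfiB and 5.79 and 5.51 in NfiA. Median peak width was 320 and 321 bp in NfiB and 281 and 285 bp in NfiA. The lowest local background, which grows with the number of reads, was 1.35 and 1.39 fragments in NfiB and 0.94 and 1.3 fragments in NfiA. Its part in the counts below was not tested.

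NFIB-only regions made up 12.7% of the merged regions, NFIA-only regions 0.235% and shared regions 29.4%. Nearly every region with both NfiA libraries also had NfiB: of 13718 such regions, 95.8% held both NfiB libraries, 477 held 1 of them and 0.765% held neither. The converse did not hold, since of 26099 regions with both NfiB libraries 50.3% held both NfiA libraries, 28.0% held 1 and 21.7% held neither. Single libraries followed the same order, with 8060 regions in NfiB CD1 alone, 5061 in NfiB Mixed alone, 474 in NfiA CD1 alone and 1265 in NfiA Mixed alone. The imbalance was gone at equal list lengths, but equal lengths draw the counts of the exclusive classes together by construction. When each list was cut to its 16993 peaks with the highest −log10 p, 740 of 25341 regions were NFIB-only (2.92%), 672 were NFIA-only (2.65%) and 10035 were shared (39.6%). Of those 740 regions, 49.1% had a peak of at least 1 NfiA library in the whole lists, and of those 672 regions 91.5% had a peak of at least 1 NfiB library. So 377 of the 740 were NFIB-only in the whole lists too, and 57 of the 672 were NFIA-only. Within 1 background the order of the counts was the same, at 20615 NFIB-only against 866 NFIA-only regions in CD1 and 12577 against 2516 in Mixed. With 1 library left out they were 10922 against 434 (without NfiB CD1), 13919 against 258 (without NfiB Mixed), 7136 against 1371 (without NfiA CD1) and 11491 against 579 (without NfiA Mixed).

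**Figure D1:**
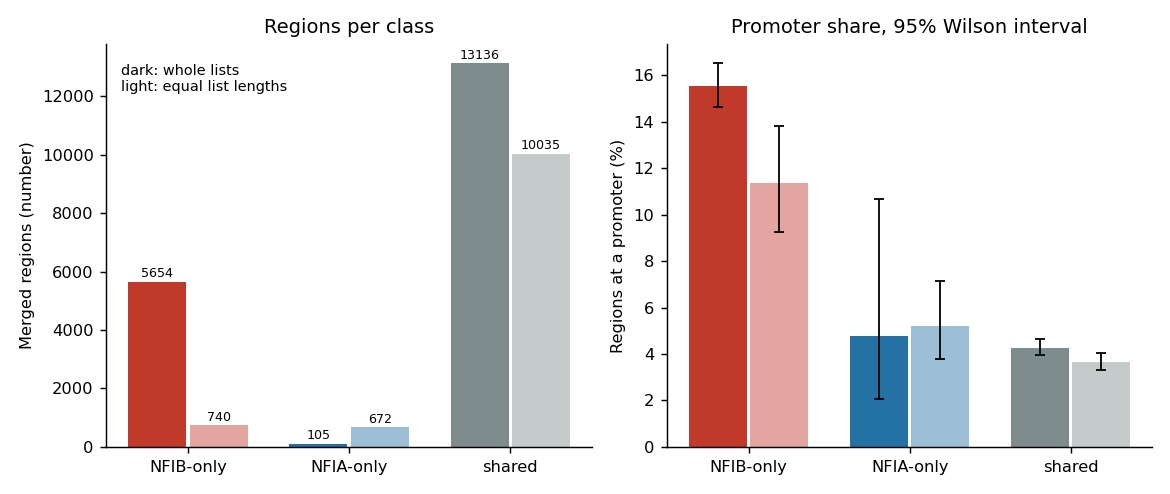
Number of merged regions per class (left) and share of them at a promoter in percent (right), for NFIB-only, NFIA-only and shared regions; dark marks are the whole lists, light marks the lists cut to equal length, and bars on the right are 95% Wilson intervals. The 5654 against 105 regions of the whole lists become 740 against 672 at equal length, which draws these counts together by construction. The NFIB-only promoter share stays above the other classes, at 15.6% and 11.4%.

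NFIB-only regions lay at promoters more often than the other classes. A summit within 1 kb of a protein-coding transcription start site (TSS) was found for 880 of the 5654 NFIB-only regions, 15.6% (95% Wilson interval 14.6 to 16.5). The share was 4.76% among NFIA-only regions (2.05 to 10.7, 5 of 105), 4.27% among shared regions (3.94 to 4.63, 561 of 13136) and 8.66% over all merged regions. With the lists cut to equal length it was 11.4% for NFIB-only (9.26 to 13.8), 5.21% for NFIA-only (3.77 to 7.16) and 3.65% for shared regions, so the order was kept. The median distance to the nearest TSS was 34.0 kb for NFIB-only, 52.9 kb for NFIA-only and 57.2 kb for shared regions. Intergenic summits made up 34.7%, 32.4% and 42.9% of these classes, and introns of protein-coding genes 38.7%, 53.3% and 41.9%. All intervals cover counting error only, and regions are not replicates. Taken per library, the promoter share of all peaks was 8.60% and 8.12% in NfiB and 4.21% and 5.44% in NfiA (exact permutation p = 0.333, the smallest possible). That gap of 3.53 percentage points shrank to 0.874 at equal list lengths, with 5.42% and 5.36% in NfiB against 4.21% and 4.83% in NfiA.

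Seen from the NfiB side, the promoters were where NfiA peaks were most often missing. Of the 1985 promoter regions held by both NfiB libraries, 44.3% had no NfiA peak, 27.4% had 1 and 28.3% had both. Of the 24114 such regions elsewhere, 19.8% had no NfiA peak and 52.2% had both. The regions without NfiA did not sit at the edge of an NfiA peak: only 21 of the 5654 lay within 100 bp of one and 6.14% within 500 bp, and the median distance to the nearest NfiA peak was 15.6 kb. NFIA-only regions had a like median distance of 15.2 kb to the nearest NfiB peak, with 2 within 100 bp. The NFIB-only share of the regions of an assembled autosome or X ran from 11.8% on chromosome 12 to 14.1% on chromosome 5. The NFIA-only share ran from 0.0843% on chromosome 2 to 0.528% on X, and the shared share was lowest on X, at 22.8%, against 26.5% to 31.8% on autosomes.

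NFIB-only peaks were weak within their own lists. The median NFIB-only peak stood at the 29.5th percentile of fold in NfiB CD1 and the 26.5th in NfiB Mixed, against the 79.8th and 76.7th for shared regions in the same lists. Their median folds were 4.59 and 4.31, against 9.17 and 8.06 for shared regions. NFIA-only peaks stood at the 35.3rd percentile in NfiA CD1 and the 43.7th in NfiA Mixed, against the 57.2nd and 66.9th for shared regions. Each exclusive class thus fell in the lower part of its factor's list in both backgrounds. Only 2.97% of NFIB-only peaks in CD1 and 2.09% in Mixed reached the top 25% of their list. Widths ran the same way: single NfiB peaks had a median of 269 and 254 bp in NFIB-only regions and 464 and 436 bp in shared regions. Single NfiA peaks had 209 and 222 bp in NFIA-only regions and 304 and 341 bp in shared regions. Merged regions, whose width grows with the number of lists by construction, had medians of 322 bp (NFIB-only), 267 bp (NFIA-only) and 520 bp (shared).

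**Figure D2:**
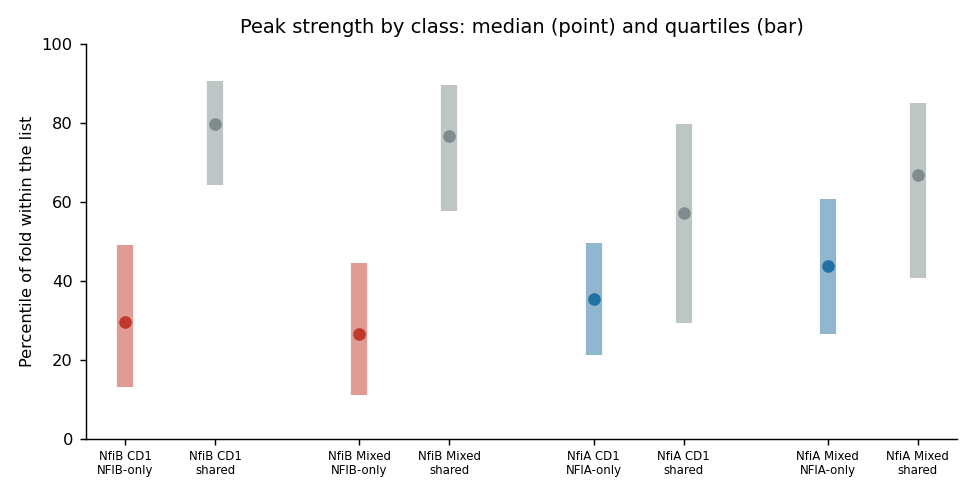
Percentile of fold within each peak list (0 to 100, vertical axis) by class and library; points are medians and bars span the quartiles. NFIB-only peaks centre on the 29.5th and 26.5th percentile of the NfiB lists, and shared peaks on the 79.8th and 76.7th.

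Fold hides how many fragments lie under a peak, so fragment numbers were recovered from the deposited fold and −log10 p of each peak. NFIB-only promoters had many fragments on a high local background. The median summit there held 41 fragments in each NfiB library over a background of 12.9 in CD1 and 13.6 in Mixed. Shared promoters held 57 and 53 fragments over 7.9 and 8.28. NFIB-only regions elsewhere held 21 and 20 fragments over 3.58 and 3.65, and shared regions elsewhere 50 and 45 over 4.54 and 4.63. In both libraries, then, NFIB-only promoters held fewer fragments than shared regions of either kind and had the highest background of these 4 sets. NFIA-only summits held 12 fragments in NfiA CD1 and 16 in NfiA Mixed over 1.51 and 1.92, and shared summits in those libraries held 25 and 35 over 3.19 and 4.32. NFIB-only promoters stood at only the 5.86th and 4.29th percentile of fold in NfiB CD1 and Mixed, with median folds of 3.13 and 2.95. NFIB-only regions elsewhere stood at the 34.5th and 30.7th. The background was solved from the same folds, so it is no separate measure beside them. Its part in these percentiles and in the promoter share was not tested.

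**Figure D3:**
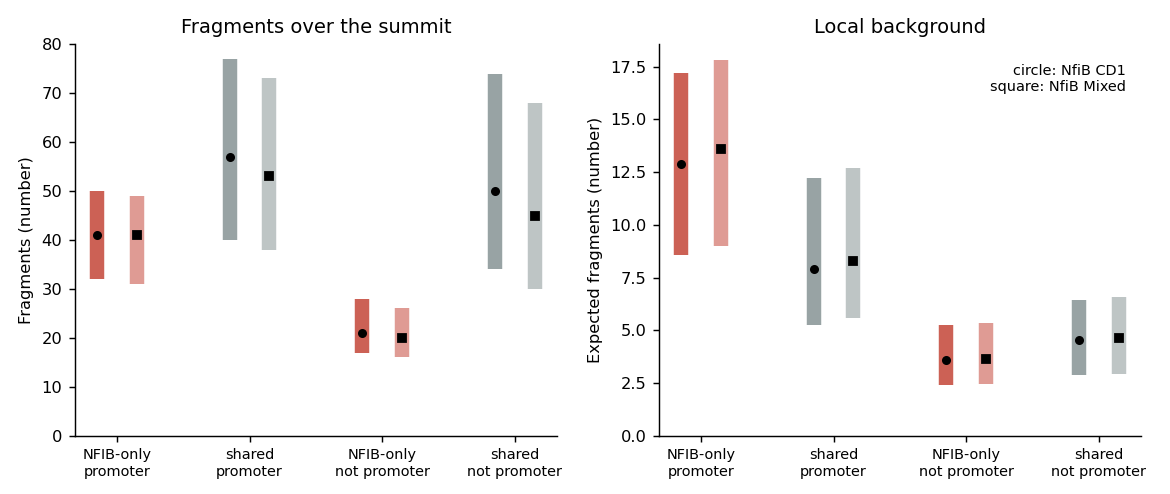
Median number of sequenced fragments over the summit (left) and in the local background (right) for NFIB-only and shared regions at promoters and elsewhere, with circles for NfiB CD1, squares for NfiB Mixed and bars over the quartiles. NFIB-only promoters have 41 fragments in both libraries on the highest backgrounds shown, 12.9 and 13.6.

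The NfiX lists, which took no part in forming the classes, overlapped NFIA-only regions more often than NFIB-only ones. An NfiX Mixed peak overlapped 20.1% of NFIB-only regions (95% Wilson interval 19.1 to 21.2), 60.0% of NFIA-only regions (50.4 to 68.9) and 88.7% of shared regions (88.1 to 89.2). An NfiX CD1 peak, from a list of 7497, overlapped 1.36%, 23.8% and 47.0% of them. NFIB-only promoters had the lowest overlap, with 46 of 880 in NfiX Mixed (5.23%) and 1 of 880 in NfiX CD1. The order was the same at equal list lengths, with NfiX read on the whole-list region that holds each one: NfiX Mixed held 47.0% of NFIB-only, 71.6% of NFIA-only and 95.2% of shared regions, and NfiX CD1 3.92%, 36.6% and 54.8%. NfiX and NfiA lists were both shorter than the NfiB lists, so list length and factor cannot be told apart in the whole lists.

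The gap in NfiX remained among regions of like NfiB strength. The 26099 regions with both NfiB libraries were divided into 4 groups of equal size by mean NfiB percentile, and NFIB-only regions were compared with shared ones inside each. In the weakest group NfiX Mixed held 12.6% of 3436 NFIB-only regions and 57.4% of 777 shared regions. In the second group the shares were 27.6% and 74.2%, in the third 44.0% and 87.8%, and in the strongest 77.3% of 22 and 98.2% of 6124. In all 4 groups the 95% Wilson intervals of the classes were apart. The groups were not matched on width, and a wider merged region is more easily overlapped (median 520 bp for shared, 322 bp for NFIB-only regions). The part of width in the NfiX gap was not tested. The promoter share behaved otherwise. It was 24.2% for NFIB-only (22.8 to 25.6) and 23.4% for shared regions (20.6 to 26.5) in the weakest group, where the intervals overlap. In the second group it was 2.29% for NFIB-only and 6.14% for shared regions, and in the third 2.22% and 3.71%. In no group did the NFIB-only promoter share stand above the shared one beyond these intervals.

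**Figure D4:**
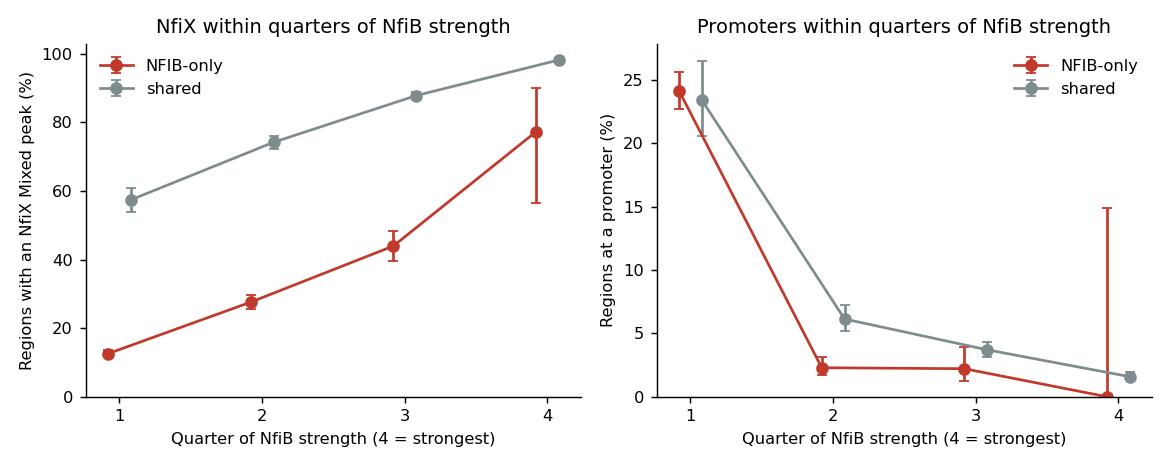
Share of NFIB-only and shared regions with an NfiX Mixed peak (left, percent) and at a promoter (right, percent) within 4 groups of NfiB strength, from weakest (1) to strongest (4); bars are 95% Wilson intervals. The NfiX shares lie apart in all 4 groups, with 12.6% against 57.4% in the weakest and 77.3% against 98.2% in the strongest, whereas the promoter shares of the weakest group are 24.2% and 23.4%.

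The strongest NFIB-only regions lay mostly in introns and between genes. The highest by mean percentile within 100 kb of a protein-coding TSS was chr17:89960352-89960757, with a fold of 10.3 in both NfiB libraries, 50.1 kb from Gm10184. The next, chr8:57546234-57546892, with folds of 8.95 in CD1 and 10.02 in Mixed, lay in an intron of Galnt7, 34.7 kb from Hmgb2, which encodes a chromatin protein abundant in dividing cells. A region in an intron of Robo1, a receptor for the guidance cue SLIT, had 12.7 and 6.29 (chr16:72553635-72554062). Both were held by NfiX Mixed as well, as were 8 of the 12 highest regions, and NfiX CD1 held none of them. An intron of Adam12, a metalloprotease, had 10.3 and 8.54 without NfiX (chr7:134171315-134171648), and an intron of Tcf4, the E protein that pairs with neural bHLH factors, had 10.7 and 7.11. Intergenic examples lay 31.4 kb from Lars2 (9.66 and 9.13), 83.2 kb from Lingo2 (9.15 and 8.16) and 12.7 kb from Nptx2, a synaptic pentraxin (8.22 and 8.34). A region 40.5 kb from Gp2 had 11.5 in CD1 and 7.28 in Mixed. The remaining regions by the same order lay near Sh3kbp1, Zc3h15 and Il1r1.

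At promoters the highest NFIB-only region was that of Sh3kbp1, an endocytic adaptor, with folds of 10.3 in CD1 and 7.1 in Mixed (chrX:159697679-159698162, 0.593 kb from the TSS). Pdia6, a protein-folding enzyme of the endoplasmic reticulum, had 9.67 and 6.12, and Myh3, an embryonic muscle myosin, 7.26 and 7.11. Nfasc, the axonal adhesion protein neurofascin, had 7.98 and 6.31 (chr1:132637357-132637663). Zfp608, Olfr211, Aox1 and Adam2 followed, with folds of 5.51 to 8.09. NfiX Mixed held the Pdia6 and Zfp608 promoters and none of the other 6. All 8 stood well above the median NFIB-only promoter, whose folds of 3.13 and 2.95 are given above. In sequence, the NFIB-only promoters had the letters common to active CpG-rich starts. Of RefSeq promoters (250 bases before to 50 after the start), 462 held an NFIB-only summit and had a median GC content of 61.2% and 23 CpG. The 247 with a shared summit had 55.7% and 11 CpG, and all 32851 promoters 52.7% and 7.

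The motifs of these promoters differed in the same direction. GGGCGG, the core bound by SP and KLF factors, was in 65.8% of the NFIB-only promoters (61.4 to 70.0), 38.9% of the shared ones (33.0 to 45.1) and 35.7% of all. CCGGAA, the ETS core, was in 34.8%, 21.9% and 14.9%. The NFI arm TTGGCA was in 20.1% of NFIB-only, 36.4% of shared and 14.1% of all promoters. The short-armed palindrome was in 1.3% of NFIB-only (6 of 462), 15.8% of shared (39 of 247) and 0.807% of all promoters. All motifs were searched on both strands, and a match is a description of the letters, not a bound site. NFIB-only promoters were thus close to promoters at large for the palindrome and above them for the SP and ETS elements. GC content moved with these shares, as given above, and its part in them was not tested.

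Of the 105 NFIA-only regions, 56 lay in introns of protein-coding genes. The strongest was chr3:85842884-85843158, with folds of 7.73 in NfiA CD1 and 8.61 in NfiA Mixed, 44.5 kb from Glt28d2. Next came an intron of Nrg3, which encodes a neuregulin, with 7.82 and 8.21 (chr14:39438735-39439013), and an intergenic region 451 kb from Htr2c, a serotonin receptor, with 7.22 and 7.39. Both NfiX libraries held these 3 regions. Regions near Tmem212, Slc22a3, Prex2, Eefsec and Lmnb1 were held by NfiX Mixed alone, that near Rp1 by NfiX CD1 alone and that near Slc2a10 by neither. Nrg3 also had a shared region among the strongest of all 4 lists. The 5 NFIA-only promoters were those of Hist1h1b, Hist1h4d, Hist1h2bc, St3gal3 and Gm10722, with folds of 2.27 to 5.64. Of these, 3 are replication-dependent histone genes. Whether reads from repeated or similar sequences played a part at any of the 5 was not tested. With lists of equal length 35 of 672 NFIA-only regions were promoters.

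At shared regions the lists ranked the regions much alike. Spearman's rho of fold over the 13136 regions was 0.766 between the NfiB libraries and 0.706 between the NfiA libraries. It was 0.743 between NfiB and NfiA in CD1 and 0.778 between them in Mixed, so libraries of 1 background were as alike as libraries of 1 factor. These values describe regions of the same lists and carry no test. The strongest shared regions stood at the top of every list and were held by both NfiX libraries. The highest, chr10:15397067-15397642, 637 kb from Nmbr, had folds of 46.5 and 30.5 in NfiB CD1 and Mixed and 40.2 and 29.5 in NfiA CD1 and Mixed. An intron of Clstn2, a synaptic calsyntenin, had 36.0 and 33.5 in NfiB and 25.2 and 31.9 in NfiA (chr9:97831090-97831953). An intron of Pard3, a polarity protein used in granule neuron migration, had 30.3 and 28.4 in NfiB and 28.3 and 27.0 in NfiA. Hs3st4, Nrg3, Cdh18, Med10, Cdh7, Irs2 and Nell1 were nearest to the others of the 10 highest.

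Ranks of fold taken over the shared regions alone, with 100 the highest, gave each list the same length. Both NfiB ranks lay above both NfiA ranks in 2463 regions (18.8%, median difference 15.9 rank points), and both NfiA ranks lay above both NfiB ranks in 2386 (18.2%, median −19.1). In the other 8287 the ranks overlapped. The counts in the 2 directions are close, and which is larger depended on the setting, so neither is read as a difference between the factors. Differences over 25 rank points were found in 570 regions with NfiB higher and 796 with NfiA higher. Regions with NfiB higher were wider, at a median of 568 bp against 436.5 bp, and lay farther from a TSS, at 57.6 kb against 45.0 kb. Promoters made up 3.86% of them (3.17 to 4.69), against 5.83% where NfiA was higher (4.96 to 6.84). NfiX CD1 held 45.0% where NfiB was higher and 55.7% where NfiA was higher, and NfiX Mixed 90.4% and 87.5%. Fragments over the summit differed in the NfiB libraries, with 63 and 58 where NfiB was higher against 35 and 32 where NfiA was higher. In the NfiA libraries they barely did, with 25 and 36 where NfiB was higher against 24 and 33 where NfiA was higher. The local background there did differ, at 3.69 and 5.04 where NfiB was higher against 2.52 and 3.42 where NfiA was higher. In the NfiB libraries it was 5.01 and 5.11 against 3.82 and 3.9. These numbers were solved from the folds that formed the groups, so they describe the groups and are no separate result.

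The regions at either end of that scale were chosen for their difference and are given as a description. The largest with NfiB higher was chr2:163970252-163970732, 24.4 kb from Ywhab, a 14-3-3 protein. It had ranks of 77.7 and 76.3 in NfiB against 23.1 and 14.5 in NfiA, and folds of 13.0 and 11.3 against 4.78 and 4.43. Regions nearest to Pam, Rasal2, Fgf13, Pcdh19 and Nudt12 followed, with rank differences of 49.1 to 57.4, and NfiX Mixed held all 6. The Fgf13 region, in an intron of this regulator of neuronal sodium channels, had ranks of 62.8 and 65.3 in NfiB against 2.9 and 16.1 in NfiA. The largest with NfiA higher was chr14:118255948-118256265, 10.8 kb from Gm9376. It had ranks of 6.7 and 30.3 in NfiB against 89.7 and 91.9 in NfiA. Regions nearest to Zfp326, Mettl15, Rgs6, Adgrl3 and Grm7 followed, with rank differences of −70.9 to −69.5. The Adgrl3 region lay in an intron of this synaptic adhesion receptor, with ranks of 29.9 and 4.0 in NfiB against 87.5 and 86.0 in NfiA. Both NfiX libraries held these 6. Merged widths were 481 to 666 bp for the 6 with NfiB higher and 310 to 425 bp for the 6 with NfiA higher.

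The full palindrome was read in no NFIB-only window. It was in 0 of 820 NFIB-only windows, which allows a share of up to 0.366%, in 17 of 799 shared windows (2.13%, 1.33 to 3.38) and in 0.768% of all readable windows. Among shared windows it was in 0 of 153 where NfiB was higher, which allows up to 1.96%, and in 14 of 180 where NfiA was higher (7.78%, 4.69 to 12.6). The palindrome with arms shortened by 1 base, as in the Themis3, Slitrk1, Syne3 and Tspan12 windows printed above, gave larger counts. It was in 7 of 820 NFIB-only windows (0.854%, 0.414 to 1.75) and 98 of 799 shared windows (12.3%, 10.2 to 14.7), against 5.11% of all readable windows. Windows 1 kb to either side held it in 0 of 754 for NFIB-only and 4 of 1009 for shared regions. With the arms set 8 bases apart as a control, the shares at summits were 0.732% for NFIB-only and 0.501% for shared windows. Thus the palindrome at NFIB-only summits was about as frequent as the control spacing, and at shared summits well above it. The shorter arms were added after the counts of the full palindrome had been seen, and readable windows cover 14.5% of NFIB-only and 6.08% of shared regions.

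Rank difference split the shared windows by this motif. The short-armed palindrome was in 2 of 153 windows where NfiB was higher (1.31%, 0.359 to 4.64), in 70 of 180 where NfiA was higher (38.9%, 32.1 to 46.2) and in 26 of 466 where the ranks overlapped (5.58%). Across 5 equal groups of shared regions by rank difference, from NfiB highest to NfiA highest, the share was 2.17%, 2.52%, 6.59%, 13.6% and 34.9%. Within CD1 alone the end groups had 2.8% and 31.0%, and within Mixed alone 1.44% and 36.8%, so the pattern stood in both backgrounds. With −log10 p in place of fold they had 3.8% and 34.6%. The end groups were alike in mean rank, with medians of 47.0 at the NfiB end and 44.7 at the NfiA end, and in GC content of the windows, with a median of 53.5% at both. Placing the window on the summit of a single library changed little: where NfiB was higher the share was 1.31% and 1.94% on NfiB summits and 0.637% and 1.27% on NfiA summits. Where NfiA was higher it was 36.1% and 35.0% on NfiB summits and 39.1% and 39.5% on NfiA summits.

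The E-box CAGATG ran the other way. It was in 16.2% of all readable windows, and along the same 5 groups its share was 33.3%, 26.4%, 15.4%, 24.0% and 12.7%, highest at the NfiB end and lowest at the NfiA end, with the 3 between out of order. Within CD1 the end groups had 32.2% and 14.6%, and within Mixed 35.3% and 16.6%. By class, CAGATG was in 15.4% of NFIB-only (13.1 to 18.0) and 21.8% of shared windows (19.05 to 24.8). Outside promoters the order was the reverse, but the intervals overlap. There NFIB-only windows held it in 31.6% (26.6 to 37.2, 93 of 294) and shared windows in 25.2% (21.8 to 28.9, 142 of 564). Of all readable windows outside promoters, 524 of 2093 held it (23.2 to 26.9%). At promoters the shares were 6.27% for NFIB-only (4.50 to 8.68) and 13.6% for shared windows (9.81 to 18.6). CAGATG thus did not mark the NFIB-only class as a whole. TTGGCA, the single NFI arm, was in 13.0% of NFIB-only (10.9 to 15.5) and 30.9% of shared windows (27.8 to 34.2), against 18.4% of all readable ones. More of the NFIB-only windows lay at promoters (526 of 820, against 235 of 799 shared). Outside promoters the shares were 19.7% and 35.6%, and at promoters 9.32% and 19.6%. TTGGCA separated the ends of the rank scale less, at 30.1% where NfiB was higher and 38.9% where NfiA was higher. So the single arm was found at both ends, more often at the NfiA end. Of the 98 windows with the short-armed palindrome, 2 lay where NfiB was higher and 70 where NfiA was higher.

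**Figure D5:**
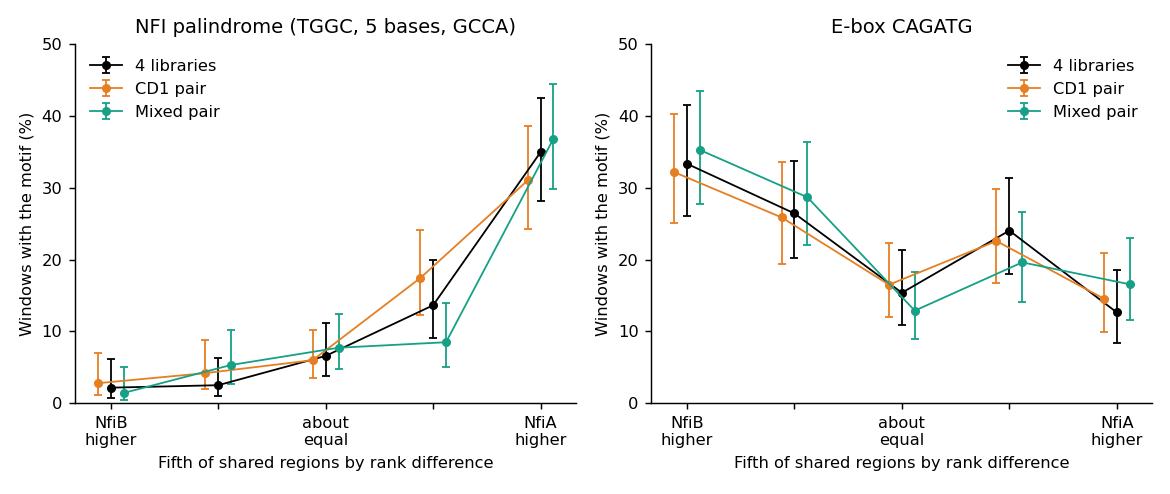
Share of readable windows with the short-armed palindrome and with CAGATG (percent) across 5 equal groups of shared regions by rank difference, from NfiB higher on the left to NfiA higher on the right, in all 4 libraries and within each background; bars are 95% Wilson intervals. The palindrome is in 2.17% of windows at the NfiB end and 34.9% at the NfiA end, and CAGATG in 33.3% and 12.7%.

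Turned round, the 98 shared regions whose window held the short-armed palindrome had a median rank of 27.4 and 24.5 in the NfiB libraries and 51.2 and 56.1 in the NfiA libraries. The 701 without it had 32.5 and 30.7 in NfiB and 28.3 and 30.1 in NfiA. With minus without the palindrome, the difference in median rank was therefore −5.1 and −6.2 rank points in NfiB against 22.9 and 26.0 in NfiA, which do not overlap. The NfiB minus NfiA difference was −30.1 (exact two-sided permutation p = 0.333, the smallest that 2 against 2 libraries allow). For CAGATG the same values were 14.0 and 15.8 in NfiB against 5.1 and 10.1 in NfiA, and for TTGGCA 13.4 and 7.5 against 15.0 and 17.8. Regions with the palindrome were also narrower, with a median merged width of 439 bp against 520 bp without it, and the part of width was not tested. NfiX CD1 held 67.3% of the regions with the palindrome (57.6 to 75.8) and 29.0% of those without (25.7 to 32.4). By holders, the palindrome was in 15 of 33 windows of regions with both NfiA and 1 NfiB library (45.5%) and in 30 of 640 with both NfiB and 1 NfiA library (4.69%). Cutting the lists to equal length put it in 3 of 89 NFIB-only windows (3.37%, 1.15 to 9.45) and in 16 of 48 NFIA-only windows (33.3%, 21.7 to 47.5). CAGATG was then in 19 of 89 and 3 of 48 (21.3% and 6.25%). Motifs were read there on the window of the whole-list region. Of the 672 NFIA-only regions at equal length, 66.2% were shared in the whole lists. These windows therefore overlap those counted above and are no separate result. Only 4 NFIA-only windows of the whole lists could be read, and none of them held the palindrome.

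Genes were assigned by the nearest protein-coding TSS within 100 kb, a measure of closeness alone. NFIB-only regions had 2982 such genes (13.6% of 21992), NFIA-only regions 68 (0.309%) and shared regions 4532 (20.6%). Of the NFIB-only genes 1610 also had a shared region, which is 54.0% of them and 35.5% of the shared genes. At promoters 927 genes had an NFIB-only region (4.22%) and 578 a shared one (2.63%), with 54 genes in both. These are 5.83% of the NFIB-only set, beside 2.63% of all genes with a shared one. They are 9.34% of the shared set, beside 4.22% of all genes with an NFIB-only one. A region has only 1 class, so a promoter with 1 region cannot be in both sets, which limits the overlap by construction. Most NFIB-only regions were near Gse1 with 10, Mef2c and Nfib with 9 each, and Auts2, Lingo1, Pax6 and Zfp608 with 8 each. Mef2c encodes an activity-dependent factor of maturing neurons and Pax6 a homeodomain factor of granule progenitors. All 7 genes also had 4 or more shared regions, and 1 of them, Gse1, an NFIA-only region.

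The NFI genes themselves carried NFIB-only and shared regions and no NFIA-only region. Only 0.309% of all genes were near an NFIA-only region, so that absence says nothing about these genes. At equal list lengths Nfib was near an NFIA-only region. Nfib had 9 NFIB-only and 10 shared regions, Nfia 4 and 8, Nfic 0 and 4 and Nfix 0 and 2. The strongest shared region at Nfib, in an intron (chr4:82494387-82496092), had folds of 15.9 and 15.0 in NfiB and 10.7 and 11.8 in NfiA. Nfia had both kinds at promoters: an NFIB-only region at chr4:97772042-97773308 with 3.81 and 4.72 in NfiB, and a shared one at chr4:97880252-97881056 with 14.3 and 13.0 in NfiB against 9.13 and 8.41 in NfiA. The Nfix promoter region (chr8:84773941-84775055) had 6.5 and 6.75 in NfiB and 3.73 and 3.79 in NfiA, with ranks of 20.3 and 34.5 against 5.51 and 6.07. Of the 24 shared regions near the 4 genes, 10 had NfiB higher and 4 had NfiA higher in rank (41.7% and 16.7%), beside 18.4% and 19.2% of all shared regions within 100 kb of a TSS. The 2 strongest NFIB-only regions at each of Nfib and Nfia had folds of 3.45 to 5.44 in the NfiB libraries.

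Several neural lists had many members near both NFIB-only and shared regions. Granule neuron maturation genes had an NFIB-only region for 16 of 25 and a shared one for 17, axon guidance for 21 and 25 of 35, cell adhesion for 22 and 31 of 34 and bHLH factors with E proteins for 10 and 11 of 17. These stand beside 13.6% and 20.6% of all genes. Examples of NFIB-only regions were Cntn1, an adhesion protein of granule axons (7.76 and 6.63 in NfiB CD1 and Mixed), Mef2c (6.61 and 7.42) and Grik2, a kainate receptor subunit (10.7 and 6.41). Sonic hedgehog pathway genes, which drive progenitor division, had 8 and 10 of 17, with NFIB-only regions near Boc (5.78 and 7.43), Sfrp1 (6.58 and 5.47) and Gli3 (5.16 and 5.11). Ion channels had 17 and 24 of 29, neuronal migration genes 12 and 17 of 22, synaptic vesicle genes 11 and 17 of 27 and glutamate and GABA receptors 7 and 19 of 30. NFIA-only regions touched 1 gene of all 22 lists, the adhesion protein Cdh10 (5.12 in NfiA CD1 and 5.48 in NfiA Mixed), beside 0.309% of all genes, a share at which few listed genes would be met.

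Housekeeping lists differed in how many of their NFIB-only regions were promoters. Splicing factors had 6 of 26 genes near an NFIB-only region (23.1%) and ribosomal proteins 6 of 34 (17.6%). The proteasome list had 6 of 26 (23.1%), of which 2 had one at the promoter. Oxidative phosphorylation had 4 of 27 (14.8%), with 3 NFIB-only promoters and 1 shared promoter. These counts of nearby genes stand beside 13.6% of all genes. Splicing factors had 5 of 26 with an NFIB-only promoter (Sf3b1, Sf3a3, Srsf1, Srsf7 and Rbm25) and ribosomal proteins 4 of 34 (Rpl3, Rpl32, Rpl37 and Rps18), and neither list had a shared promoter. The folds were low, as at Sf3a3 (3.07 and 2.97 in NfiB CD1 and Mixed) and Rbm25 (3.74 and 2.75). Neither list at equal lengths had any gene near an NFIB-only region. The bHLH factors and E proteins had 7 of 17 shared promoters (Neurod1, Neurod2, Neurod6, Neurog1, Nhlh2, Tcf3 and Tcf4). Wnt pathway promoters were NFIB-only for Fzd2, Lrp6, Ctnnb1 and Gsk3b and shared for none of 28 genes. Migration promoters were NFIB-only for Astn2, Cdk5r1, Dcx and Plxna2 and shared for none of 22. Chromatin remodellers had 4 and 6 of 30. The promoter counts stand beside 4.22% (NFIB-only) and 2.63% (shared) of all genes. All these counts are descriptions without a test.

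Peak lists of equal length put the gene lists on even terms. Glutamate and GABA receptor genes had 5 of 30 near NFIB-only regions (Gabbr2, Gabra2, Grik2, Grik3 and Grik4) and 0 near NFIA-only regions. Granule neuron maturation genes had 6 of 25 (Cdh2, Cntn1, Grin2c, Mef2a, Mef2c and Rbfox3) against 2 (Ncam1 and Rbfox3). Ion channels had 1 of 29 (Kcnj6) against 3 (Cacna1c, Kcnma1 and Scn1a). Each of the other lists differed by 2 genes or fewer, and over all genes 494 were near NFIB-only and 419 near NFIA-only regions. Rank differences at shared regions gave a like picture for receptors. Of 40 shared regions near receptor genes 13 had NfiB higher and 3 had NfiA higher (32.5% and 7.5%), beside 18.4% and 19.2% of all shared regions within 100 kb of a TSS. Axon guidance had 19 and 6 of 72 (26.4% and 8.33%). Ion channels had 6 and 13 of 60 and the Notch pathway 2 and 6 of 22 (9.09% and 27.3%). Members did differ within a list: at Gabra2 an intronic shared region had 10.3 and 12.02 in NfiB against 16.2 and 16.1 in NfiA, a rank difference of −27.4.

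Peaks do not measure RNA, so markers are a weak check of the labelled cell type. Of 10 granule neuron progenitor markers 8 were near an NFIB-only and 7 near a shared region, among them Atoh1, Barhl1, Pax6, Mycn and Ccnd2 for both. Of 7 Bergmann glia and astrocyte markers 3 were near an NFIB-only region (Slc1a3, Sox9 and Gdf10) and 4 near a shared one. Of 5 oligodendrocyte lineage markers the counts were 3 and 2. Of 5 Purkinje and GABAergic neuron markers they were 0 and 1, Gad1 in the shared class, but a wider list of 15 genes of those neurons had 5 and 11. No marker was near an NFIA-only region. The shares over all genes were 13.6% for NFIB-only, 0.309% for NFIA-only and 20.6% for shared regions, so a count of 0 for NFIA-only says nothing about the markers. Whether other cells contributed was not tested, since peaks near a gene do not show that its cell type was present.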

How the data were processed

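ChIP-seq peaks of 4 libraries (NfiB and NfiA, CD1 and Mixed, 2 per factor) were analysed, with the 2 NfiX libraries as a measure. The submitters' processing notes name Bowtie2 2.2.6, SAMtools 1.4.1, MACS2 2.1.0 and mm10, while the use of input, read filters and call threshold are not stated there. The labels state that paired-end sequencing was not used. In the peak list that the authors deposited for each library, every peak has a fold enrichment (a ratio to local background), its p-value and q-value as −log10, and a score not used here. These are the authors' values and only rank, describe or filter peaks within a list.

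From these, peaks were merged with numpy 2.4.6 and pandas 2.3.3 (Python 3.11.15), and percentiles of fold were taken within each list. A fragment number and local background were solved from each peak's fold and p under a Poisson model and matched 100% of peaks within 0.002 on the −log10 p scale. Depth was judged from these: the median summit held 22 to 28 fragments in the 4 libraries. Genes came from GENCODE vM21 and promoters from RefSeq (GRCm38.p6). The 2 gave the same letters at all 3304348 bases they share. Shares carry 95% Wilson intervals and a share of 0 the limit that 3 counts allow, and both cover counting error only. Libraries were compared by exact permutation (scipy 1.17.1). The scripts were tested on simulated data.

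Members, gene lists and motifs were chosen with earlier results of these data known. The rule names the 12 NFIB-only regions with the highest mean percentile, the 8 highest at promoters, the 5 genes with most regions, the 10 highest NFIA-only and shared regions, the 6 largest rank differences each way, up to 3 genes per list and the NFI genes. Genes named beyond it (the readable windows, the list members by promoter or at equal length, NFIA-only promoters, ties among the genes with most regions) were chosen after their values were seen. Alternatives were equal list lengths, a −log10 q of 5 or more, summits within 100 bp, merging up to 500 bp, each background alone, each library left out, other promoter limits, −log10 p ranks, a 20 kb gene distance and 51 bp windows. No genome sequence was used. A few regions that the rules select are not reported here.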

Additional observations from a re-analysis of the deposited data

Results flagged for a closer look

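The median fold of the lists moved in opposite directions in the 2 backgrounds: NfiB minus NfiA was −0.033 in CD1 (5.76 in NfiB against 5.79 in NfiA) and 0.01 in Mixed (5.52 against 5.51). This difference between the backgrounds was not tested, since each has 1 library per factor, and both values are small beside the SD between libraries of 1 factor, 0.17 for NfiB and 0.201 for NfiA.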

How the results depend on the processing

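Of the shared regions, 18.75% had NfiB higher and 18.16% NfiA higher in rank. That order turned round at equal list lengths (17.54% and 17.82%) and with −log10 p (17.88% and 18.11%). At the control spacing of 8 bases the palindrome was in 0.7317% of NFIB-only and 0.5006% of shared windows, also the reverse order. No other count, share, width or rank in this section changed direction under the alternatives run. Some gene lists did at equal list lengths: ion channels went from 17 NFIB-only and 0 NFIA-only genes to 1 and 3. The proteasome list went from 6 and 0 to 0 and 1. The promoter share also turned round within groups of NfiB strength. It was 24.2% for NFIB-only and 23.4% for shared regions in the weakest group, but 2.29% and 6.14% in the second and 2.22% and 3.71% in the third. At equal list lengths there were 740 NFIB-only and 672 NFIA-only regions, a promoter share of 11.35% (15.6% in the whole lists), NfiB peaks 153.8 bp wider in shared than in NFIB-only regions (188.5 bp), a median NFIB-only percentile of 20.8 (27.96), NfiX Mixed on the shortened region itself in 46.89% (20.1%), and NfiB higher in 17.54% of shared regions (18.75%). With a −log10 q of 5 or more these were 13.0%, 178.5 bp, 28.69% and 19.5% for promoters, width, NfiX and rank. With summits within 100 bp 262 regions were NFIA-only and NfiX held 21.86%. CD1 alone gave 20615, 866, 11.93%, 178.0 bp, 31.48, 25.72% and 51.49%, and Mixed alone 12577, 2516 and 20632 shared regions, 12.51%, 144.0 bp and 52.03%, where 1 library per factor raises the rank share by construction. Leaving out 1 library gave 7136 to 13919 NFIB-only, 258 to 1371 NFIA-only and 13328 to 18967 shared regions. The same 4 omissions gave promoter shares of 11.75 to 13.94%, widths of 135.0 to 216.0 bp, percentiles of 25.55 to 36.96, NfiX shares of 11.68 to 39.6% and rank shares of 33.94 to 37.17%. Promoters within 5 kb gave 23.91% and TSSs of all biotypes 20.92%. Ranks by −log10 p gave a percentile of 31.41 and a rank share of 17.88%, and a 20 kb limit 1942 NFIB-only genes. Shorter arms took the palindrome to 12.27% of shared windows. Other values moved in 23 of 44 cases. The cause of these moves beyond list length and library number was not tested. Motif shares rest on the few windows inside exons and promoters, and each background holds 1 library per factor.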
